A study of Mus musculus with 6 samples.

Results

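The myelin and glial autoantigens described here are 7 genes, Mbp, Mobp, Mog, Mag, Cnp, S100b and Gfap, read by 15 of the 41174 probes on the array. They were taken by name: every non-control probe whose gene name in the scanner files is one of the 7 was kept, with Cnp also under its older name Cnp1. RNA was measured on 6 single-colour Agilent arrays from cells of the C57BL/6 strain, and no transgene, treatment or age is named in the labels. The ThymusEC group is epithelium from the thymic medulla, sorted as Epcam-positive, UEA1-positive, CD45-negative and negative for Fluorogold, a dye that marks dead cells. The ThyroidEC group is thyroid epithelium, sorted as Epcam-positive, CD45-negative and Fluorogold-negative. Each group held 3 replicates, described as independent, and each was a pool: 6, 6 and 2 thymi in thymic replicates 1 to 3, and 20 thyroids in every thyroid replicate. Values of single animals are therefore not seen.

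Myelin is the lipid-rich sheath that oligodendrocytes in the brain and spinal cord, and Schwann cells in peripheral nerves, wrap around axons. Mbp and Mobp are small basic proteins inside compact myelin, Mog and Mag are membrane glycoproteins of the sheath, Cnp is an enzyme of the uncompacted cytoplasmic channels, and S100b (a calcium-binding protein) and Gfap (an intermediate filament protein) are used as markers of glial cells. Several of these proteins are studied as targets of T cells in multiple sclerosis and its animal models. Medullary thymic epithelial cells are known to transcribe genes of many other tissues and so to show their products to developing T cells. The comparison asks which of these glial genes were transcribed in sorted thymic medullary epithelium and how their levels differed from those in sorted thyroid epithelium.

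The probes are oligonucleotides of 60 bases, and the sequences of those on which the results turn are given here because a signal reports only the stretch of transcript that its probe covers. For Mog and for 1 probe each of Mobp, Mag and S100b the whole probe is shown, and for the other Mag probe and for Cnp the first 30 bases. All are lower case, 5′ to 3′, in the orientation of the array files, and no base is singled out.
Mog A_52_P85040: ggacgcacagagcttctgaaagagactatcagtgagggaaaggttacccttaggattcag
Mobp A_51_P291224: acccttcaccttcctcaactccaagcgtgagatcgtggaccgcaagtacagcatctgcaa
Mag A_52_P375021: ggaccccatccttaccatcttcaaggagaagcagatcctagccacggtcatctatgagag
Mag A_51_P435428: tatttattgctatccctttcctggtctcct
Cnp A_51_P232901: tttggtcattcctaagttcctatctccttc
S100b A_51_P208083: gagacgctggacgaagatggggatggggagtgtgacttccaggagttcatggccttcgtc
The array files place these probes on the mm8 genome build. The Mog probe lies at chr17:36628515-36628574 (minus strand), the Mobp probe at chr9:120016586-120016645 (plus), the Mag probes at chr7:30615779-30615838 and chr7:30607972-30608031 (minus), the Cnp probe at chr11:100397393-100397452 (plus) and the S100b probe at chr10:75703680-75703739 (plus). No mm8 gene annotation was used here, so exon, intron and UTR are not assigned.

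The processed signal at the 75th percentile was 476 to 805 on the 6 arrays, lowest on thyroid replicate 2, and no spot was saturated. The median signal was higher on the thymic arrays, at 123 to 139.7, than on the thyroid arrays, at 61.1 to 98.2. Levels below are log2 of the processed signal minus log2 of that percentile, so 0 is the 75th percentile of an array. A probe was called above background where the scanner software flagged it as well above background. That flag was set for 78.4% to 81.0% of all probes on the thymic arrays and 65.4% to 72.8% on the thyroid arrays. The labels' tissues were borne out by their defining genes, with Aire, the medullary regulator of antigen expression, at 6.04 ± 0.16 in thymic and -6.04 ± 0.45 in thyroid cells, and Tg, which encodes thyroglobulin, at -1.83 ± 0.09 and 8.95 ± 0.24 (SD, n = 3 each). Genes that mark other cell types also differed. All 13 endothelial genes of a list were higher in thyroid cells, against 30.4% of all genes tested. Ptprc, the gene of CD45, was 16.2-fold higher in thymic cells. Whether these transcripts came from other cells in the sorts or from the epithelial cells was not tested. In such bulk samples, fewer cells of a type and less RNA per cell cannot be told apart. Thymic replicates 1 to 3 and thyroid replicate 1 were on slide 1, and thyroid replicates 2 and 3 on slide 2.

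The 7 genes fell into 3 patterns. Mbp, Mag and Cnp had probes above background on every array, and the upstream Mbp probe, both Mag probes and the Cnp probe were higher in thymic cells. S100b was the reverse, bright in thyroid cells and 32.3-fold lower in thymic cells. Mog was not above background on any array with either probe, and Gfap and Mobp were at or near background throughout. A probe was tested if some group had it above background on each of its 3 arrays, which 8 of the 15 probes did, covering 5 genes. By limma with Benjamini-Hochberg adjustment over all 32370 probes tested, 5 of the 8 were higher in thymic cells and 1 higher in thyroid cells at an adjusted p under 0.05. These counts stand against a background in which 37.2% of all tested probes were called towards the thymic and 31.5% towards the thyroid sort, 68.7% in either direction, so a call as such was common on these arrays. The split of calls over all probes depends on the scaling: 12046 went towards the thymic and 10188 towards the thyroid sort here, against 8478 and 17010 with median centring, 9917 and 13163 with quantile normalization and 10873 and 5779 with no scaling. The median difference (thymic minus thyroid) was 0.70 over the 8 member probes and 0.06 over all tested probes. The groups did not overlap for 7 of the 8 probes, and for 75.3% of all tested probes.

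**Figure D1:**
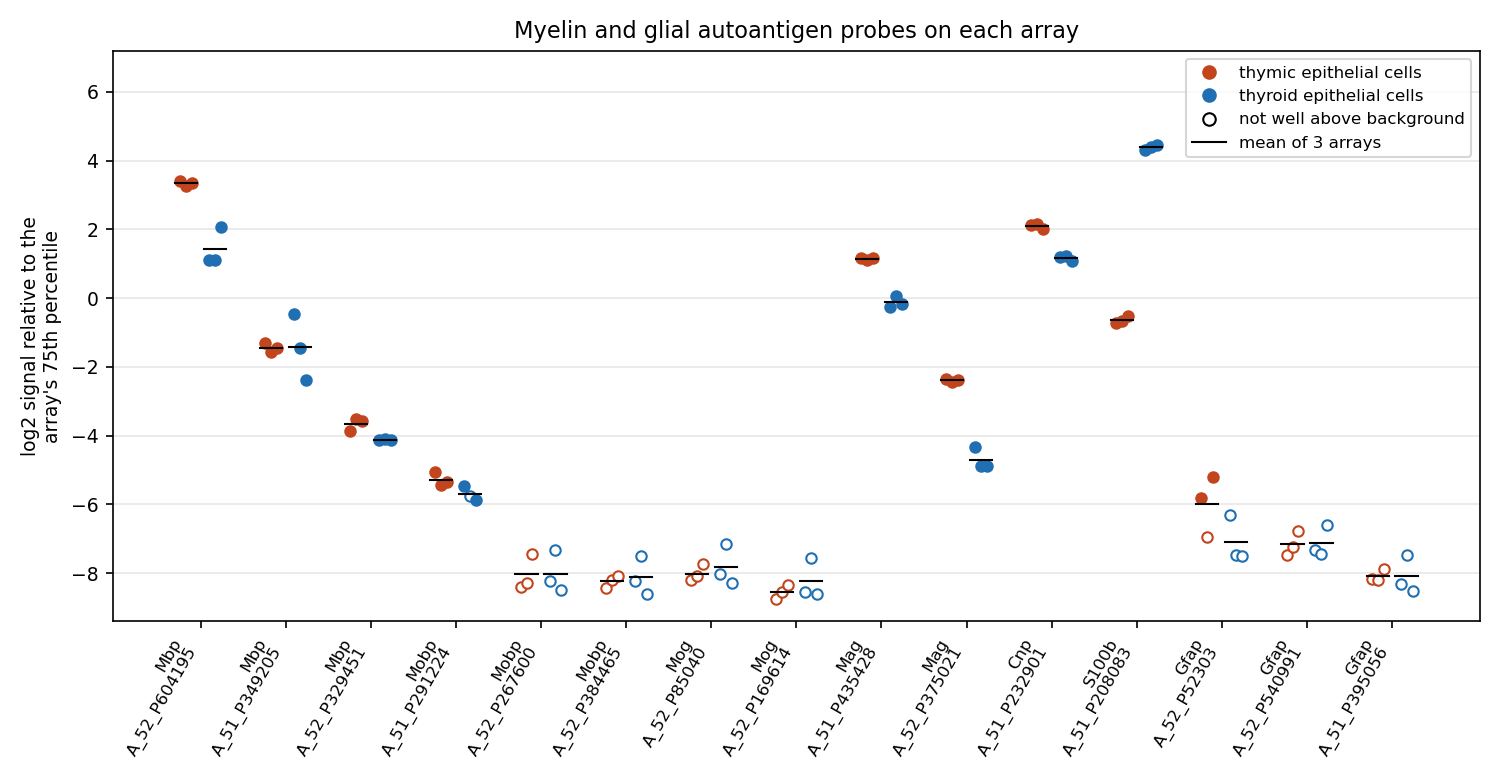
Log2 signal relative to each array's 75th percentile (vertical axis) for all 15 probes of the 7 genes (horizontal axis), with 1 point per array, thymic in red and thyroid in blue. Open points were not well above background and bars are means of 3 arrays. Both Mog probes are open on all arrays, and S100b is the probe with the widest gap between the groups.

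Mbp was read by 3 probes along the gene on chromosome 18, and they did not behave alike. The probe A_52_P604195 at chr18:82692965-82693024 lies farthest upstream on the plus strand and is tied in the files to Mbp transcript variant 8. The probe A_52_P329451 starts 14.3 kb downstream and spans 2305 bases of the genome with 60 bases of sequence, so it crosses an intron. A further 10.2 kb downstream is A_51_P349205 at chr18:82719791-82719850. The Mbp gene is known to make, besides the classic myelin transcripts, longer golli transcripts that start far upstream and occur in cells of the immune system. The files do not name the transcripts of these probes as classic or golli, and no sequence of this gene is shown.

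The upstream Mbp probe A_52_P604195 had processed signals of 8220.1, 6786 and 6846 on thymic replicates 1 to 3 and of 1750.3, 1023 and 3005 on thyroid replicates 1 to 3. After scaling, the thymic levels of 3.41, 3.28 and 3.34 lay together and above every thyroid level, the highest of which was 2.08 on thyroid replicate 3. The means were 3.34 ± 0.07 and 1.43 ± 0.56 (SD, n = 3 each), a 3.76-fold higher signal in thymic cells with a 95% confidence interval of 2.41 to 5.85 (limma, adjusted p = 6.35e-04). Without thyroid replicate 3 the log2 difference was 2.23 in place of 1.91. Most T cell genes moved the same way. Of 14 tested members of a thymocyte and T cell list, 12 were higher in thymic cells, against 39.2% of all genes tested. Of these, 4 were above background on no thyroid array and entered the test only through the thymic arrays. When a probe had to be above background on each of the 6 arrays, 5 were called towards the thymic and 1 towards the thyroid sort. Cd8b1 of that list was 3.96-fold higher in thyroid cells (limma adjusted p = 8.31e-06). The list's summed level (in multiples of an array's 75th percentile signal) was 3.40, 3.80 and 5.76 on thymic replicates 1 to 3 and 1.95 to 2.06 on thyroid arrays. Rag2 of that list was not tested. The part of T cells in the Mbp difference was not tested.

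The intron-crossing Mbp probe A_52_P329451 differed less between the groups, at -3.87, -3.51 and -3.57 on the thymic and -4.13, -4.10 and -4.12 on the thyroid arrays. Its difference of 0.46 (SE 0.13, 1.38-fold, limma adjusted p = 0.0156) passed here but depended on the processing, turning to -0.06 with median centring (adjusted p = 0.697) and to -0.38 with quantile normalization (adjusted p = 0.0484), and missing the threshold without thymic replicate 2 (adjusted p = 0.0598) or 3 (adjusted p = 0.0599). The difference also missed the threshold with the slide as a block (0.47, adjusted p = 0.0704), on slide 1 alone (adjusted p = 0.0723), with normexp (0.19, adjusted p = 0.325) and with no scaling (0.60, adjusted p = 0.112).

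The downstream Mbp probe A_51_P349205 was at -1.30, -1.57 and -1.45 in thymic cells and at -0.46, -1.44 and -2.37 in thyroid cells. Thyroid replicate 1 lay above all thymic arrays and thyroid replicate 3 below them, and the groups overlapped. The difference was -0.02 with a 95% confidence interval of -1.07 to 1.03 (limma adjusted p = 0.973), so a change of 2-fold in either direction was not excluded. This probe was printed 10 times per array, which gives the spread between spots of an array but not the technical error between arrays. The SD over its spots was 0.04 to 0.10 on the log2 scale, against an SD of 0.96 over the thyroid arrays, which therefore differed among themselves by far more than the spots did. Within slide 1, where thyroid replicate 1 is the only thyroid array and is assumed to vary like the thymic ones, the difference was -0.98 (adjusted p = 0.00410), with the slide as a block it was also -0.98 (adjusted p = 0.0619), and without thyroid replicate 1 it was 0.46 (adjusted p = 0.203). Slide and replicate cannot be told apart among the thyroid arrays.

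The change between the groups was 1.93 larger on the log2 scale for the upstream than for the downstream Mbp probe, and 1.45 larger than for the intron-crossing probe. In an exact permutation test of each, two-sided, p was 0.10, the smallest that 3 arrays against 3 can give, and the adjusted p over the 4 pairs of probes compared was 0.133. The first value ranged from 1.29 without thyroid replicate 1 to 2.72 without thyroid replicate 3 and was 3.21 on slide 1 alone, and the second was 2.53 with quantile normalization. Between the intron-crossing and downstream probes the change differed by 0.48 (exact permutation p = 0.60), a value that went to -0.16 with quantile normalization and to -0.0049 without thyroid replicate 1, and that was 1.46 on slide 1 alone.

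Mobp had 1 of its 3 probes above background. A_51_P291224 was at -5.05, -5.44 and -5.35 on the thymic and -5.46, -5.76 and -5.88 on the thyroid arrays, and not above background on thyroid replicate 2. Thymic values lay narrowly above thyroid ones. The difference of 0.42 (SE 0.16, limma adjusted p = 0.0558) missed the threshold, passed without thyroid replicate 1 (0.54, adjusted p = 0.0248), and turned towards the thyroid cells with median centring (-0.10) and quantile normalization (-0.84, adjusted p = 0.00337). The Mobp probes A_52_P267600 and A_52_P384465 lie 7.71 kb and a further 5.67 kb downstream and were above background on no array, with processed signals of 2.00 to 3.91 and 1.83 to 2.68.

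Mog, the surface glycoprotein of the outermost myelin layer, was not above background on any array. Its probe A_52_P85040 gave processed signals of 2.61, 2.56 and 3.18 on the thymic and 3.07, 3.32 and 2.26 on the thyroid arrays. The lowest signal that the software flagged as well above background on these arrays lay between 7.49 and 11.1, so every Mog value was under that limit. The second probe, A_52_P169614, ranged from 1.79 to 2.52. By the weaker flag for a positive signal that differs significantly from background, A_52_P85040 was detected on 0 arrays and A_52_P169614 on 1, thyroid replicate 3. No fold is given, and a Mog transcript below this limit was not detectable.

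Mag, which also belongs to the Siglec family of sialic acid binding lectins, was above background on every array with both probes and higher in thymic cells with both. A_51_P435428 was at 1.17, 1.11 and 1.18 in thymic and at -0.27, 0.07 and -0.17 in thyroid cells, without overlap, a 2.42-fold difference with a 95% confidence interval of 1.97 to 2.98 (limma adjusted p = 1.02e-04). A_52_P375021, 7.75 kb away on the chromosome, was at -2.36, -2.44 and -2.37 and at -4.34, -4.88 and -4.87, a 4.94-fold difference with an interval of 3.74 to 6.54 (limma adjusted p = 2.54e-05). Both probes thus had thymic arrays within 0.1 of each other and separate from the thyroid arrays.

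The larger change of the Mag probe A_52_P375021 was not stable to the background correction. The change of A_52_P375021 exceeded that of A_51_P435428 by 1.03 on the log2 scale (exact permutation p = 0.10, two-sided, the smallest possible, adjusted p = 0.133 over the 4 pairs), but by 0.26 with quantile normalization and by 0.53 on slide 1, and it was -0.14 with normexp background correction. Under normexp the log2 differences of these probes were 1.06 and 1.20. The Mag gene lies 18.8 kb from Cd22, a B cell lectin gene of the same family, in the RefSeq table of the GRCm38.p6 assembly. Cd22 itself was not above background on any thyroid array and entered the test only through the thymic arrays. Only a bound is therefore given, at least 3.17-fold higher in thymic cells. All 8 genes of the B cell list were higher in thymic cells, against 39.2% of all genes tested. Of these, 4 were above background on no thyroid array and entered the test only through the thymic arrays. When a probe had to be above background on each of the 6 arrays, 2 were called towards the thymic and 0 towards the thyroid sort. The list's summed level was 6.30 to 7.05 on the thymic and 1.48 to 2.66 on the thyroid arrays. The part of B cells in the Mag signal was not tested.

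Cnp, the myelin phosphodiesterase that many other cells also express at lower levels, was bright in both sorts. Its single probe was at 2.14, 2.15 and 2.03 on the thymic and 1.21, 1.23 and 1.07 on the thyroid arrays, so the groups were tight and separate. The signal was 1.91-fold higher in thymic cells (interval 1.60 to 2.29, limma adjusted p = 2.48e-04). With median centring, which moves all differences towards the thyroid cells by 0.52, the log2 difference was 0.41 in place of 0.94 and still passed (adjusted p = 0.0131). In the GRCm38.p6 table the Cnp gene overlaps Dnajc7, and whether the probe lies in the shared stretch was not examined.

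S100b was the only member higher in thyroid cells. Processed signals were 472, 442 and 476 in thymic cells and 15939, 10053 and 15639 in thyroid cells. On the scaled log2 axis this was -0.71, -0.66 and -0.51 against 4.31, 4.40 and 4.46, so that the arrays of each group lay close together and the groups far apart. The difference was -5.02 (SE 0.11), a 32.3-fold higher signal in thyroid cells with a 95% confidence interval of 26.8 to 39.0 (limma adjusted p = 3.29e-07). S100b was nonetheless above background on all 3 thymic arrays.

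**Figure D2:**
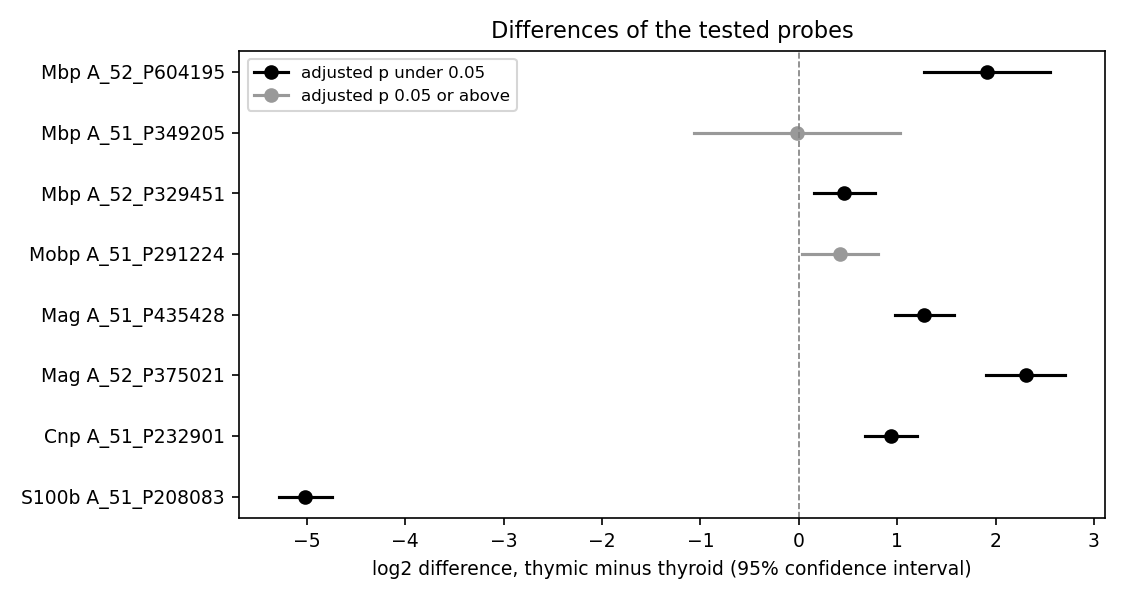
Log2 difference, thymic minus thyroid, with its 95% confidence interval (horizontal axis) for the 8 tested probes (rows). Black points passed at an adjusted p under 0.05. The S100b point lies at -5.02, the upstream Mbp probe at 1.91 and the downstream Mbp probe at -0.02 with the widest interval.

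S100b is also made outside glia, by fat cells, cartilage cells and melanocytes, and markers of those cells are given beside it. Of 9 tested fat cell genes, 6 were called towards the thymic and 2 towards the thyroid sort. For cartilage genes the counts were 7 and 2 of 11, and for melanocyte genes 6 and 1 of 7. For genes of peripheral glia they were 6 and 5 of 16. The shares over all genes tested were 39.2% towards the thymic and 30.4% towards the thyroid sort. Summed levels of these lists are given for thyroid against thymic arrays. They were 74.6 to 93.9 against 73.3 to 80.5 for fat cells and 4.14 to 6.51 against 9.80 to 11.0 for cartilage. For melanocytes they were 1.18 to 1.65 against 2.71 to 3.17, and for peripheral glia 34.5 to 37.4 against 20.1 to 25.3. Single markers of these cell types went both ways. Among fat cell genes, the lipase gene Lipe (12.8-fold) and the regulator Pparg (3.98-fold) were higher in thyroid cells, the fatty acid carrier Fabp4 was at 6.15 in thymic and 6.32 in thyroid cells (limma adjusted p = 0.278), and the adipokine gene Adipoq was at -1.34 and -5.58. Among cartilage genes, Hapln1 (1.72-fold) and Sox5, which was above background on no thymic array, were higher in thyroid cells, while the collagen gene Col2a1 (2.66-fold) and the regulator Sox9 (1.70-fold) were higher in thymic cells. Among melanocyte genes, the regulator Mitf was 1.67-fold higher in thyroid cells, and the melanin enzyme gene Dct was above background on no thyroid array. The endothelial list had a summed level of 733 to 1044 on thyroid and 5.61 to 6.13 on thymic arrays. The part of fat cells, cartilage, melanocytes, endothelial cells or peripheral glia in the S100b signal was not tested.

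Gfap, the filament protein of astrocytes, was tested by none of its 3 probes. The probe A_52_P52303 was above background on thymic replicates 1 and 3 and on no thyroid array, with processed signals of 13.6, 5.69 and 18.3 on the thymic and 10.2, 2.68 and 3.95 on the thyroid arrays, and the groups overlapped. The intron-crossing probe A_52_P540991 was above background on no array, at 2.73 to 7.40, though the weaker flag was set on 5 of 6 arrays. A_51_P395056 was printed 10 times per array, and after outlier spots were left out 0 of its 8 to 10 spots per array were well above background. Its mean signal was 1.96 to 2.87, and the groups overlapped.

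The downstream Mbp probe was set against genes of peripheral glia, a comparison chosen after its values were seen. Sox10, the transcription factor of Schwann cells and oligodendrocytes, was at -2.42, -2.65 and -2.51 on the thymic and at -1.88, -2.35 and -3.27 on the thyroid arrays (limma adjusted p = 0.946 for the groups). It thus had its highest value on thyroid replicate 1 and its lowest on thyroid replicate 3, as the downstream Mbp probe did. Each gene was centred on its own mean over the 6 arrays, and Sox10 had the smallest root mean square distance from this Mbp probe, 0.17, of 15930 named genes. Next were the interferon-inducible genes Gbp6 (0.19) and Ifit3 (0.19), and Isg15 was also among the nearest 10. This is a description over 6 arrays that share 2 groups, with no test.

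The upstream Mbp probe and S100b did not have this order among the thyroid arrays, both being highest on replicate 3. Of the 21380 tested genes with values on every thyroid array, 32.0% were highest on replicate 1, beside 6 of 16 genes of the peripheral glia list, 12 of 22 of the central myelin list, 10 of 18 of the astrocyte list and 9 of 13 of the endothelial list. The full order of the downstream Mbp probe and Sox10, falling from replicate 1 to 2 to 3, was held by 3965 of the 21380 genes. It was held by 4 of 16 peripheral glia, 8 of 22 central myelin, 9 of 18 astrocyte and 9 of 13 endothelial genes. The part of endothelial cells in this order was not tested. A second Sox10 probe was above background on no array, and Cdh19 and Gap43 of the peripheral glia list were not tested.

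**Figure D3:**
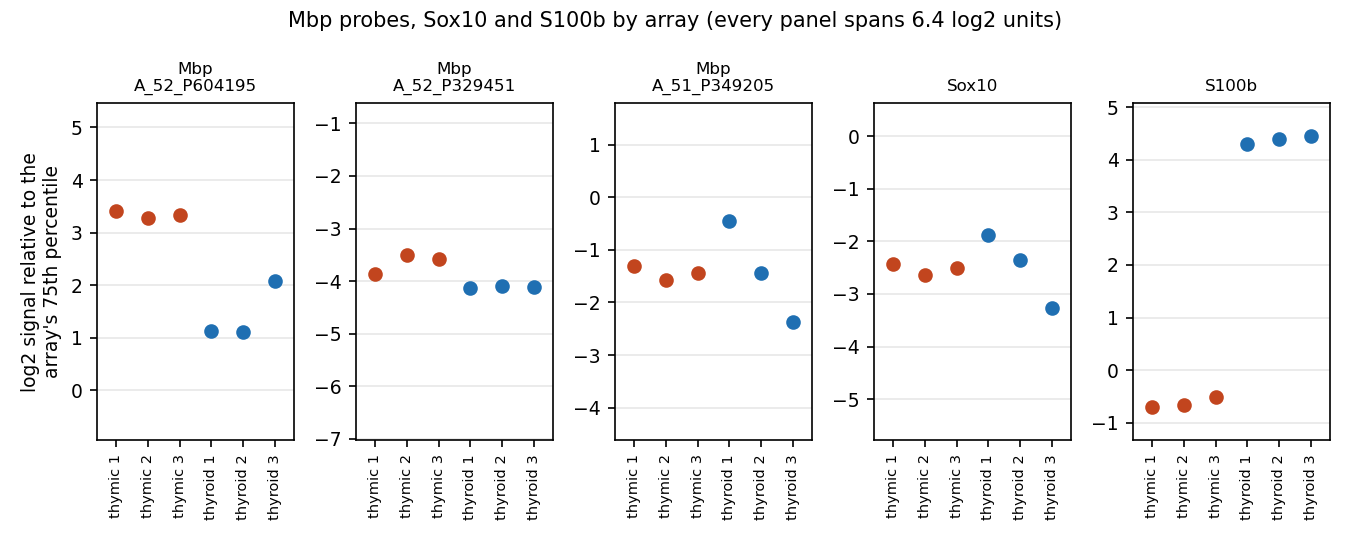
Log2 signal relative to the 75th percentile on each of the 6 arrays for the 3 Mbp probes, Sox10 and S100b, thymic in red and thyroid in blue, every panel spanning the same number of log2 units. The downstream Mbp probe A_51_P349205 and Sox10 are highest on thyroid replicate 1 and lowest on thyroid replicate 3, while the upstream Mbp probe is highest on the thymic arrays.

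By the same measure, the 2 genes nearest in profile were Ipcef1 and Tmem82 for the upstream Mbp probe (distances 0.11 and 0.11), Stard5 and Tes for Cnp (0.04 and 0.05), Fam155a and Tex36 for Mobp (0.07 and 0.07) and Slc41a2 and Efr3b for S100b (0.11 and 0.11). None of these is a glial gene of the lists used here. For the Mag probe A_51_P435428, Snx16 was at a distance of 0.05.

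Genes that work with the members in myelin were mixed in direction. Of 22 tested genes of central myelin proteins and enzymes, 13 had their higher level in the thymic sort and 9 in the thyroid sort, with a median difference of 1.30, or 0.81 with the 5 genes that were below background on all arrays of a group set to their bound. Over all 21395 genes tested, by their brightest tested probe, 69.6% were called, 39.2% with the higher level in the thymic sort and 30.4% in the thyroid sort, and the median was 0.10. Higher in thymic cells were Cntn2, an axonal adhesion protein (at least 15.5-fold), Gal3st1, the enzyme that makes the myelin lipid sulfatide (log2 difference 4.46), and Nfasc, the neurofascin gene (log2 difference 4.36). Higher in thyroid cells were the choline phosphodiesterase gene Enpp6 (log2 difference -5.01), Plekhb1 (log2 difference -3.32) and Bcas1 (7.22-fold). In their lower group Gal3st1 and Enpp6 were above background on 1 of 3 arrays and Nfasc on 2, so these differences rest in part on signals near background. By limma, none of Gal3st1, Nfasc, Enpp6, Plekhb1 and Bcas1 had an adjusted p above 2.51e-05. Cntn2 was above background on no thyroid array and entered the test only through the thymic arrays, so only its bound is given. The thymic count was 7 with normexp, 8 with quantile normalization and 4 when a probe had to be above background on each of the 6 arrays. Under that filter 8 genes of the list were called towards the thyroid sort. Of all 26004 probes it tested, 7311 went towards the thymic and 9886 towards the thyroid sort.

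Of 13 tested regulators of the oligodendrocyte lineage, 7 were called towards the thymic sort and 3 towards the thyroid sort, with a median of 0.87. The shares over all genes tested were 39.2% and 30.4%. The homeobox gene Nkx6-2 was at 2.67 ± 0.17 in thymic and -5.32 ± 1.00 in thyroid cells (254-fold, limma adjusted p = 8.45e-06). The thymic sort also had the higher level of Olig1, a basic helix-loop-helix factor of oligodendrocytes (at least 13.7-fold), and of St18 (10.8-fold). Nkx2-2 (11.5-fold), Zfp536 (4.86-fold) and Myrf, which drives transcription of myelin genes (log2 difference -0.48, adjusted p = 0.0193), were higher in thyroid cells. When a probe had to be above background on each of the 6 arrays, 4 were called towards the thymic and 4 towards the thyroid sort.

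Of 16 tested genes of peripheral glia and Schwann cells, 6 were called towards the thymic sort and 5 towards the thyroid sort, with a median of 0.03. These counts were near the shares over all genes tested, 39.2% and 30.4%. Pmp2, a lipid-binding myelin protein, was at least 14.7-fold, Drp2 at least 6.13-fold and the neurotrophin receptor gene Ngfr 8.21-fold higher in thymic cells. Gjb1, the connexin of myelinating Schwann cells (49.2-fold), Pmp22 (log2 difference -4.17) and Ncmap (4.56-fold) were higher in thyroid cells. With median centring 8 were called towards the thyroid sort in place of 5.

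Of 18 tested astrocyte genes, 12 were called towards the thymic sort and 4 towards the thyroid sort, with a median of 1.79. The connexin gene Gjb6 was at least 187-fold, the glutamate transporter gene Slc1a2 at least 31.1-fold and Mlc1 at least 9.81-fold higher in thymic cells. Atp1b2 (4.45-fold), Fgfr3 (4.27-fold) and Slc4a4 (3.96-fold, above background on 2 of 3 thymic arrays) were higher in thyroid cells. Gfap, in contrast to these genes, gave no testable signal. Over these 4 glial lists together, 37 genes were called towards the thymic and 20 towards the thyroid sort, 33 and 26 with median centring, and 17 and 20 under the stricter filter that asks for signal above background on each of the 6 arrays. Of all 26004 probes tested under that stricter filter, 7311 went towards the thymic and 9886 towards the thyroid sort. Over all genes tested in the main fit, 39.2% were called towards the thymic and 30.4% towards the thyroid sort. Of 13 tested neuronal genes, 9 were called towards the thymic and 2 towards the thyroid sort. The corresponding counts were 10 and 1 of 14 for myeloid and dendritic cell genes, and 4 and 4 of 9 for genes of thyroid C cells and the parathyroid.

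**Figure D4:**
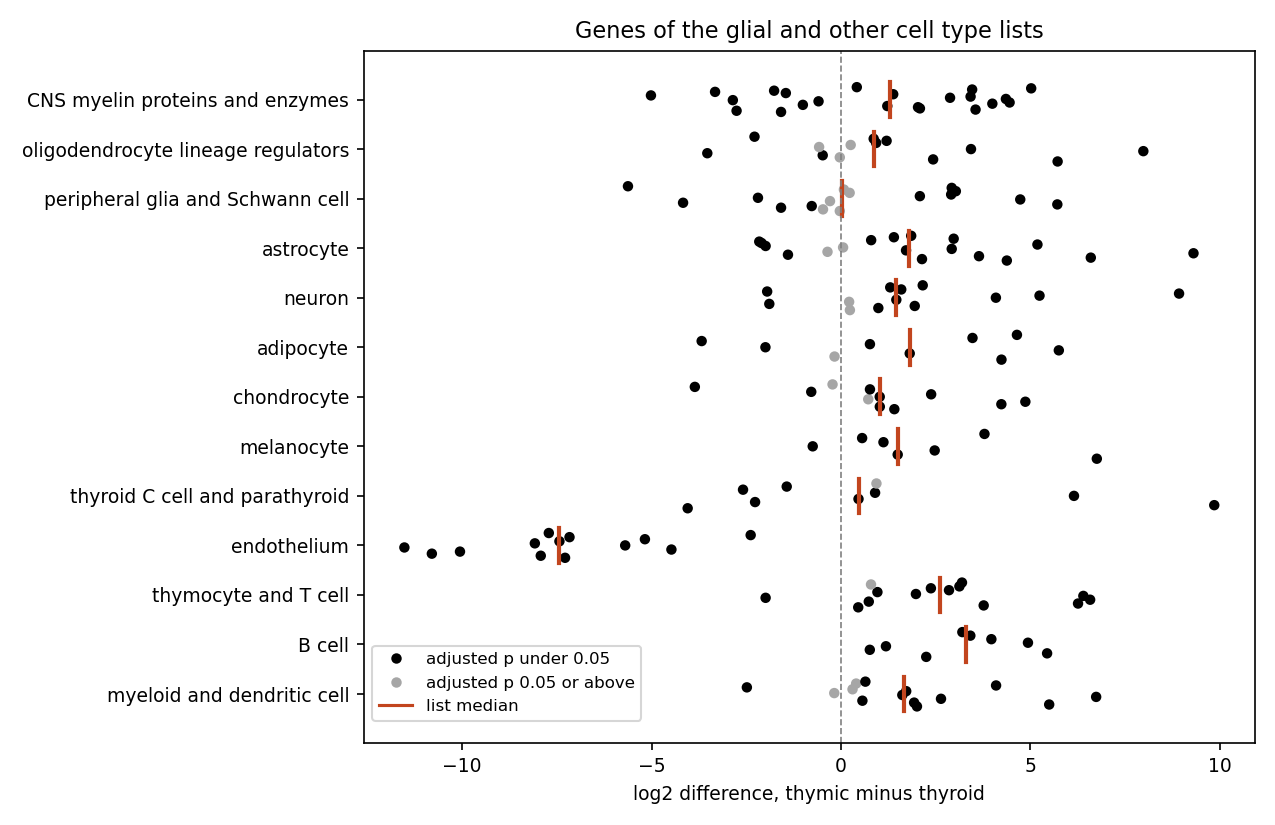
Log2 difference, thymic minus thyroid (horizontal axis), of each tested gene in the glial lists and in the lists of other cell types (rows), with list medians in red and genes at an adjusted p of 0.05 or above in grey. Genes of the glial lists lie on both sides of 0, while all 13 endothelial genes are below 0 and all 8 B cell genes above it.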

How the data were processed

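Total RNA (Trizol, Cy3 label, as the labels give) was hybridised to arrays scanned and quantified by Agilent's Feature Extraction software, version 10.5.1.1 in the file headers. What the authors deposited for each array is intensity: a detrended, background-subtracted processed signal with a surrogate for dim spots, per the file headers. The authors also deposited a value table, a linear ratio that equals the processed signal over the array's median. Control and outlier spots were left out, spots of a probe averaged, and values taken as log2 minus the log2 75th percentile. A flag counted where at least 50% of spots had it. Probes well above background on all 3 arrays of 1 group were tested with limma 3.58.1 in R 4.3.3 (two-sided, no covariate), with Benjamini-Hochberg adjustment over all 32370. A group below background on all arrays was set per array to the higher of its own signal and the lowest signal well above background ("at least"). The fit was tested on simulated data. The 7 genes and the lists were chosen with earlier results of these data known. Named list genes are up to 3 per direction with the largest called difference, and some other genes that the naming rule covers are not reported here. With 3 arrays a group, their number limits precision, and p-values measure the spread between pools. Symbols came from accession (24375 probes), symbol (6301), older symbol (2426) or the file (8072). Alternatives were normexp (offset 50), other scalings (quantile, median centring, the value table), other filters, the slide as a block or slide 1 alone, a replicate block, trended robust variances, 1 probe per gene, and each replicate left out in turn. No scaling was added after seeing the data, as were the comparisons between probes of a gene.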

Additional observations from a re-analysis of the deposited data

How the results depend on the processing

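The calls of S100b, Cnp, both Mag probes and the upstream Mbp probe kept their direction and their side of the threshold under every alternative run for them. Their log2 differences ranged over these, leaving out replicates aside, from -5.54 to -4.87, from 0.41 to 1.13, from 0.75 to 1.42 (A_51_P435428), from 1.06 to 2.45 (A_52_P375021) and from 1.39 to 2.22. Counts of member probes that moved by more than 1.5 times were 3 higher in thyroid cells with quantile normalization, 2 on slide 1 alone, and 3 higher in thymic cells with 1 probe per gene, where fewer probes enter. The count in thymic cells was 4 to 6 when single replicates were left out, and that in thyroid cells 1. The glial lists' thymic count was 17 with the filter on all 6 arrays, where fewer genes are tested. The intron-crossing Mbp probe turned to -0.38 with quantile normalization and -0.059 with median centring and the value table. Mobp A_51_P291224 turned to -0.0038 with normexp, -0.84 with quantile normalization and -0.10 with median centring and the value table. The downstream Mbp probe turned to 0.12 with no scaling, 0.05 without thymic replicate 2 and 0.46 without thyroid replicate 1, and was -0.49 without thyroid replicate 3. Between probes, the Mag comparison turned to -0.14 with normexp, and that of Mbp A_52_P329451 with A_51_P349205 to -0.16 with quantile normalization and, with single replicates left out, ranged from -0.0049 (without thyroid replicate 1) to 0.96 (without thyroid replicate 3), and was 1.46 on slide 1 alone. The cause was not tested. The median of all probes moved by -0.52 with median centring, -0.27 with quantile normalization and 0.14 with no scaling. Replicate numbers do not pair the samples (correlations of deviations 0.02, -0.06 and -0.06). With a replicate block the Mobp probe passed (adjusted p = 0.0376), giving 6 member probes higher in thymic cells, and no other member call changed. By the weaker detection flag 10 member probes were detected on all thymic and 8 on all thyroid arrays, against 8 and 7. Signals of Mog, Gfap and most of Mobp are too near background to be compared.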
